A study of Mus musculus with 24 samples.

Results

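The 10 genes of proximal T-cell receptor signalling described here were read in T cells sorted from mouse tumours, out of 54957 gene rows in the deposited count table. The 10 members were fixed by symbol: Cd3e, Cd3g, Cd247, Lck, Zap70, Lat, Themis, Ptpn6, Ptpn22 and Cd5. All 10 were found, 1 row each, and all 10 passed the filter on low counts in every fit. The mice carried B16F10-OVA tumours, a melanoma line engineered to make ovalbumin as a model antigen. Each received 200 µg of an isotype control, an anti-PD-1 or an anti-JAML antibody, and tumours were taken 1 day later. PD-1 restrains activated T cells, and JAML is a junctional adhesion molecule of leukocytes. The 6 groups of 4 libraries were sorted CD8+ T cells and sorted CD4+FOXP3+ cells (Treg, regulatory T cells) after each antibody, so every group came from a tumour-bearing, antibody-treated animal and there were no cells from untreated mice. Fewer than 400 cells went into each library, which was made by Smart-seq2, a whole-transcript method for small samples. Mouse strain, genotype, age and number of animals are not given in the labels. Nothing in them ties the 4 libraries of a group to different animals. A p-value here therefore measures library-to-library spread, part of which may be technical.

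A T-cell receptor has no enzyme of its own and signals through the CD3 and zeta chains held beside it. When the receptor meets antigen, the kinase Lck phosphorylates motifs in these chains, the kinase Zap70 docks there, and Zap70 phosphorylates the adaptor Lat, which gathers the enzymes that start calcium and Ras signals. Themis is an adaptor found mainly in T cells, where it is known for its role in thymocyte selection and binds the phosphatase SHP-1. SHP-1 (Ptpn6) and PTPN22 are phosphatases that restrain the cascade, and CD5 is a surface glycoprotein that dampens receptor signals and is kept high on Treg cells.

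The promoters of 4 genes are shown first, because the results turn on these genes: Themis and Cd5 parted the 2 populations, and Cd3e and Cd3g moved together across libraries. They are RefSeq reference sequences of build GRCm38.p6, read 5′ to 3′ on the gene's strand, upstream of the outermost annotated start, and capitals mark AGGAAG or its reverse complement CTTCCT, the core of a motif bound by ETS factors. They cover chr10:28668110-28668359 (Themis, plus strand), chr19:10739003-10739224 (Cd5, minus), chr9:45009628-45009861 (Cd3e, minus) and chr9:44980432-44980681 (Cd3g, minus).
Themis: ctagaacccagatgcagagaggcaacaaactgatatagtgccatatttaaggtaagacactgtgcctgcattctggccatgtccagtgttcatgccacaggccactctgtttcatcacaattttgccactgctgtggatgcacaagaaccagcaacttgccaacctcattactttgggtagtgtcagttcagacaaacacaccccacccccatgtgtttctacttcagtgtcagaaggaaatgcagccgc
Cd5: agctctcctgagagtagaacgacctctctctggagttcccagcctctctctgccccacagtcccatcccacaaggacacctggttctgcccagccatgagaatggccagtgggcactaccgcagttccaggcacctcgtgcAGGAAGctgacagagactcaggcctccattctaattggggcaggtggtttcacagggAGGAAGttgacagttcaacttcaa
Cd3e: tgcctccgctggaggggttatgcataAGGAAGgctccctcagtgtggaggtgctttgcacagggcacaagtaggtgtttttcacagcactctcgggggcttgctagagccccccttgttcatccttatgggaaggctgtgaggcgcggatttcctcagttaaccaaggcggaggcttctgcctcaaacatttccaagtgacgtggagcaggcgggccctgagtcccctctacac
Cd3g: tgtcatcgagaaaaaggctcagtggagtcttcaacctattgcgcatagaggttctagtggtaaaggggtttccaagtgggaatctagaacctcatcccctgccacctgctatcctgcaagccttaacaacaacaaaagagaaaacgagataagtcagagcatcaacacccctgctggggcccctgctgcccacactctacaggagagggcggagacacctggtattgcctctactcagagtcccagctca
All 10 members matched the RefSeq promoter table. Over the 250 bases upstream of the start, AGGAAG was found on either strand in 8 of the 10, all but Cd3g and Themis, against 29.48% of 32851 mouse promoters of the same length. Cd5 held 2 matches, both in the stretch printed above, and Cd3e held 2, of which 1 lies in the printed stretch. TGTGGT, the core of a RUNX motif, was found on either strand in Lck alone, against 14.05% of promoters, and TATAAA in 0 of the 10, against 12.37%. The searches overlapped at no base. A match is a description of letters, not a binding site.

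Total counts lay between 11170918 and 22556460 per library, and the least abundant member value was 386 counts, of Themis in a Treg library. The sorted populations carried their defining transcripts. Cd8a stood at 1096 to 1898 CPM (library-scaled counts, with TMM factors) in the 12 CD8 libraries and reached at most 1 count in a Treg library. Cd4 stood at 195 to 443 CPM in Treg libraries and reached at most 2 counts in a CD8 library, and Foxp3 was at 0 in all 12 CD8 libraries. The other listed markers were higher in their own population but present in both. Cd8b1 held 195 to 930 counts in Treg libraries, against 9045 to 19845 in CD8 libraries. Ikzf2 held 678 to 4820 and Il2ra 286 to 1701 counts in CD8 libraries, against 9354 to 32403 and 2710 to 6627 in Treg libraries. The summed T-cell markers (Cd3d, Trac, Trbc1, Trbc2) lay between 3061 and 6721 CPM. Markers of other cells differed between libraries: the 10 macrophage and monocyte markers summed to 786, 151, 13.7 and 1144 CPM in Treg anti-PD-1 libraries 1 to 4, and to between 20.1 and 97.7 CPM in Treg isotype libraries. They summed to 461 CPM in CD8 anti-JAML library 2 and to at most 132 CPM in every other library. The 4 erythroid markers summed to 1373 CPM in Treg anti-JAML library 4, 681 in Treg anti-PD-1 library 1, 491 and 404 in CD8 anti-JAML libraries 2 and 4 and 272 in CD8 isotype library 3, and to at most 7.80 CPM elsewhere. The 5 dendritic cell markers reached 218 CPM in Treg anti-JAML library 3. The part of these transcripts in the member values was not tested. In bulk samples, fewer cells of a type and less RNA per cell cannot be told apart.

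**Figure D1:**
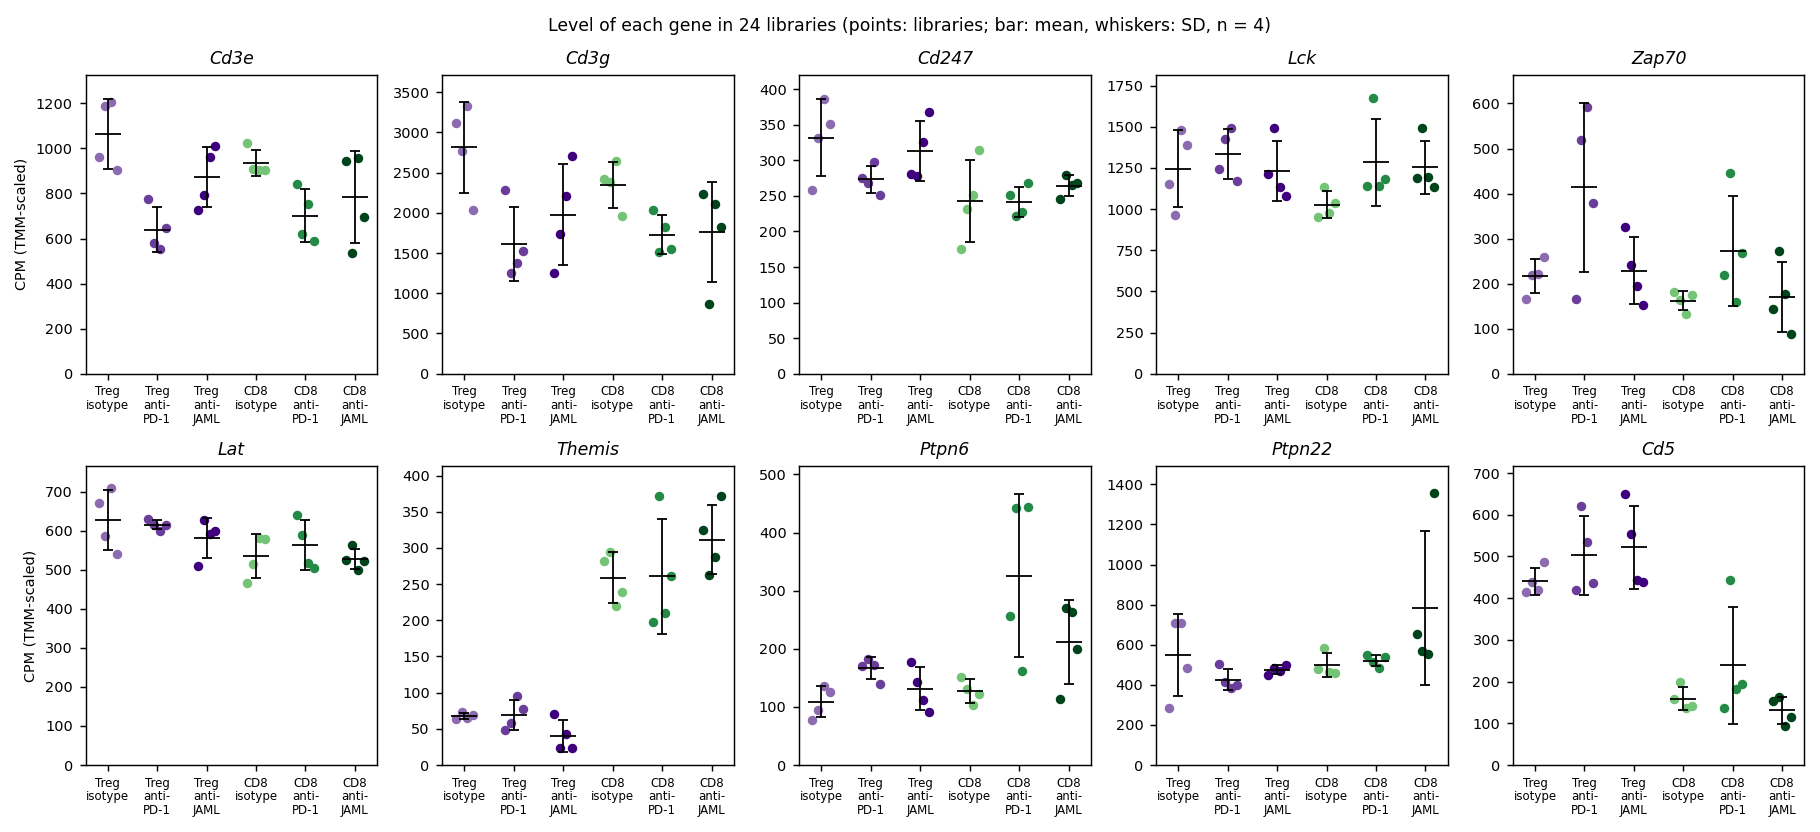
CPM (TMM-scaled counts, linear axis from 0) of each of the 10 genes in the 24 libraries; points are libraries, the bar is the mean and the whiskers the SD of 4 libraries. Themis stands between 198 and 372 CPM in CD8 libraries and between 23.2 and 95.3 CPM in Treg libraries, while most other genes overlap between groups.

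Levels of different genes were compared only per length, with the authors' TPM, a length-scaled abundance. Cd3g, the CD3 gamma chain, had the highest mean TPM in all 6 groups and Lck the second highest. In Treg cells after isotype, Cd3g stood at 1962 ± 229 TPM and Lck at 995 ± 271 TPM, and their libraries did not overlap. After either other antibody the libraries of Cd3g and Lck overlapped in both populations. Cd3e and Lat followed in places 3 and 4, and their libraries overlapped in every group but Treg anti-PD-1, where Lat stood at 603 ± 85.5 and Cd3e at 419 ± 12.9 TPM. Themis had the lowest mean in all 6 groups, and its libraries overlapped those of Cd5, the next gene, in CD8 cells after anti-JAML. In CD8 cells Themis levels were 45.1 ± 6.78 TPM with isotype, 53.4 ± 22.6 with anti-PD-1 and 66.8 ± 11.5 with anti-JAML (SD, n = 4). The Treg levels were 13.5 ± 2.15, 16.6 ± 6.71 and 9.25 ± 6.30 TPM. The middle of the order, held by Ptpn22, Cd5, Zap70, Ptpn6 and Cd247, was mostly made of neighbours whose libraries overlapped. Cd5 changed place there, with 209 ± 44.4 TPM in Treg and 65.8 ± 12.5 TPM in CD8 cells after isotype.

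**Figure D2:**
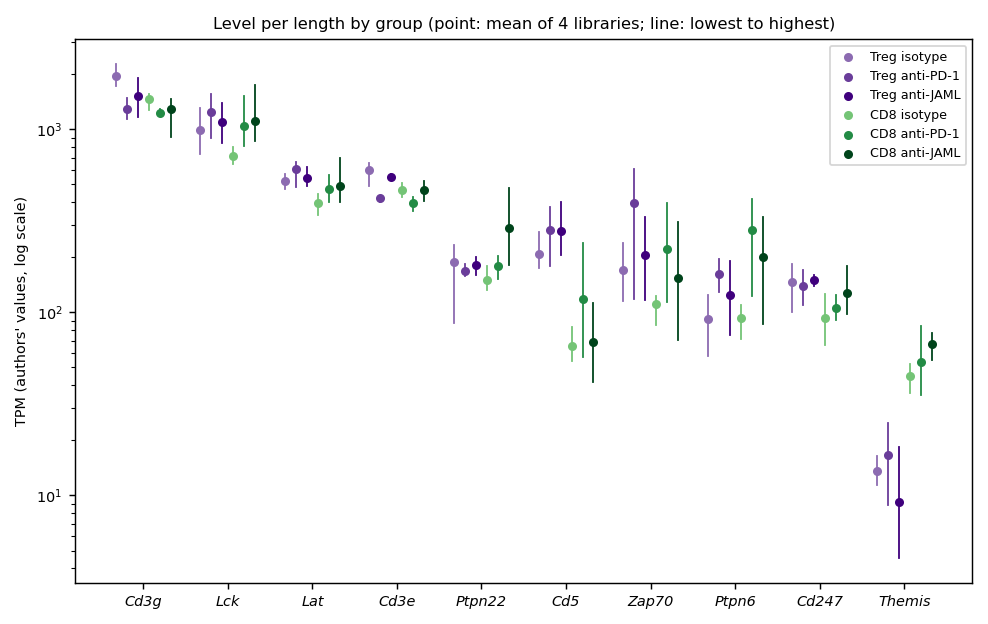
Authors' TPM (log axis) of the 10 genes, ordered by median TPM over the 24 libraries. The point is the mean of 4 libraries and the line runs from the lowest to the highest, coloured by group. Cd3g and Lck lead in all 6 groups and Themis has the lowest mean in all 6, with Treg points of 9.25 to 16.6 TPM under CD8 points of 45.1 to 66.8 TPM.

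CD8 and Treg cells were compared under each antibody with edgeR's quasi-likelihood test, adjusted over all genes tested with a threshold of 0.05. After isotype 2 of the 10 members passed, Themis higher and Cd5 lower in CD8 cells, where 15.3% of 11680 genes passed. After anti-PD-1 only Themis passed, where 7.83% of 12193 genes did. After anti-JAML Themis and Cd5 passed again, where 2.08% of 11950 genes did. By DESeq2 the counts were 4, 3 and 2 of the 10, against 23.1%, 16.7% and 8.19% of all genes. Libraries of the 2 populations did not overlap for Themis and Cd5 after isotype (26.6% of genes did not), for Themis after anti-PD-1 (17.5%), and for Themis, Cd5 and Ptpn22 after anti-JAML (11.2%). The median log2 fold change of the 10 members, CD8 minus Treg, was -0.32 with isotype, 0.02 with anti-PD-1 and -0.24 with anti-JAML. For all genes tested it was -0.06, -0.05 and -0.03. At an unadjusted p under 0.05 there were 5, 3 and 2 members, where 27.7%, 24.1% and 12.8% of genes stood under it. The 3 comparisons share no libraries with each other.

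**Figure D3:**
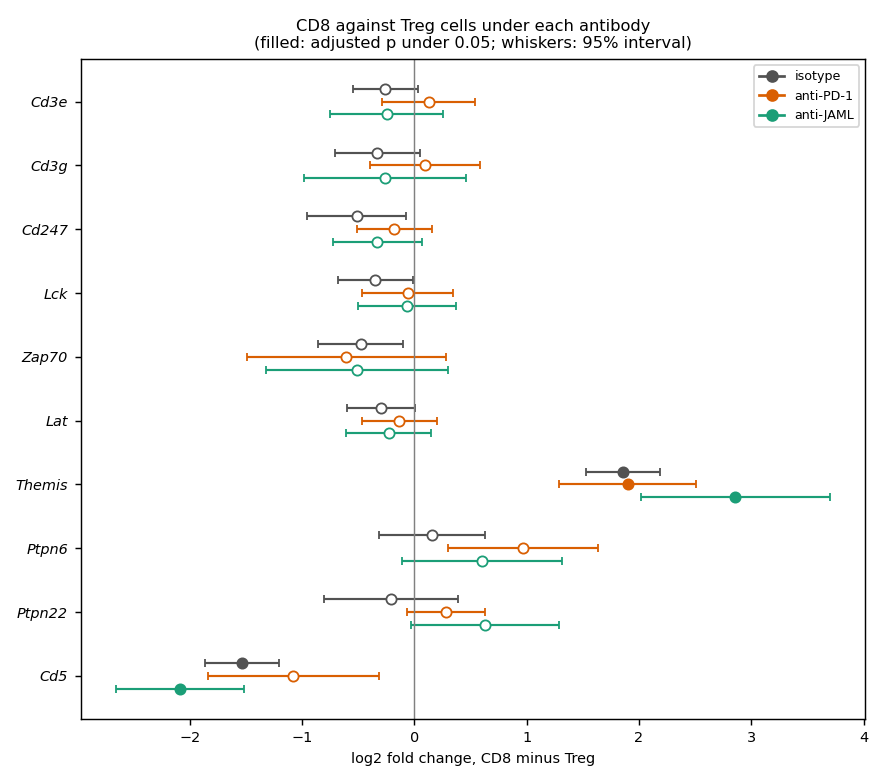
Log2 fold change of each gene, CD8 minus Treg, under isotype, anti-PD-1 and anti-JAML; whiskers are 95% intervals and filled points passed the adjusted threshold in edgeR. Themis is filled on the right at 1.86, 1.90 and 2.86, and Cd5 on the left is filled at -1.54 and -2.09 and open after anti-PD-1 at -1.08.

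The antibodies were then compared within each population. In edgeR 0 of the 10 members passed in any of the 6 antibody comparisons. In CD8 cells 0% of 12648 genes passed for anti-JAML against isotype, 0% for anti-PD-1 against isotype and 0.00791% for anti-JAML against anti-PD-1. In Treg cells the shares of 12981 genes were 0%, 0.0231% and 0% in the same order. At an unadjusted p under 0.05 the members numbered 2, 2 and 2 in CD8 cells, where 11.7%, 5.61% and 9.97% of genes stood under it. They numbered 0, 4 and 3 in Treg cells, where 5.38%, 14.1% and 5.72% of genes did. DESeq2 called 0, 1 and 0 members in CD8 cells, against 2.17%, 0.385% and 2.91% of genes, and 0, 2 and 0 in Treg cells, against 1.02%, 5.62% and 0.937%. The 3 comparisons within a population share libraries, so they are not independent. Whether an antibody effect differed between CD8 and Treg cells was tested as an interaction over all 24 libraries, and edgeR and DESeq2 each called 0 members for either antibody. In edgeR 0% of 14591 genes passed for each, and 2 members for anti-JAML and 0 for anti-PD-1 stood under an unadjusted p of 0.05, where 8.39% and 6.25% of genes did. In DESeq2 1.72% and 1.26% of genes passed.

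**Figure D4:**
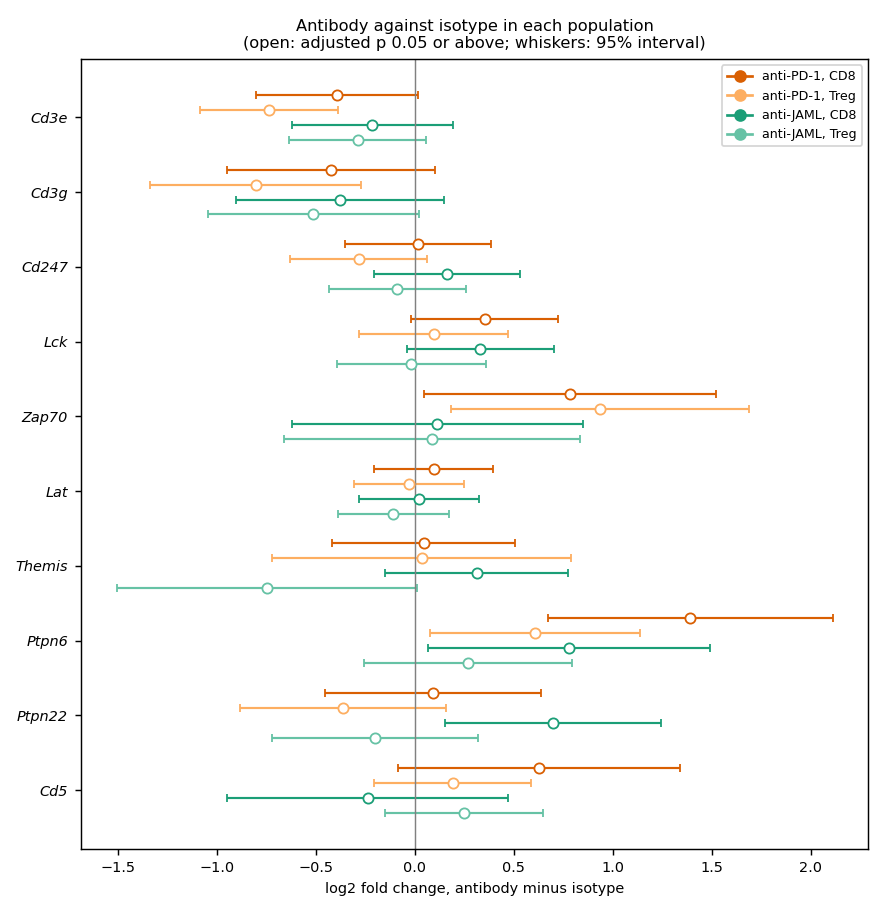
Log2 fold change of each gene, antibody minus isotype, in CD8 and Treg cells; whiskers are 95% intervals and open points did not pass the adjusted threshold in edgeR, which holds for all 40. The intervals of Ptpn6 in CD8 cells and of Cd3e and Cd3g in Treg cells after anti-PD-1 lie farthest from 0, at 1.39, -0.74 and -0.81.

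Among the CD3 chains, Cd3e and Cd3g had their lowest group means of CPM in Treg cells after anti-PD-1. By TPM their lowest group means were in CD8 cells after anti-PD-1, at 396 and 1219, against 419 and 1296 in Treg cells after anti-PD-1. Cd3e (ENSMUSG00000032093.7, mm10 chromosome 9, 44998740 to 45009627, minus strand) encodes the CD3 epsilon chain, which pairs with both the gamma and delta chains. In libraries 1 to 4 of Treg cells it stood at 961, 1189, 1204 and 905 CPM with isotype, at 777, 581, 555 and 647 CPM with anti-PD-1 and at 728, 792, 960 and 1011 CPM with anti-JAML. All 4 anti-PD-1 libraries lay under all 4 isotype libraries, which was so for 8.22% of genes in either direction, while the anti-JAML libraries overlapped the isotype ones. In Treg cells groups did not overlap for 2.7% of genes with anti-JAML against isotype and 4.58% with anti-JAML against anti-PD-1, and for 0 members in both. The Cd3e log2 fold change for anti-PD-1 against isotype was -0.74 ± 0.16 (SE; edgeR adjusted p = 0.0939, DESeq2 0.000335). Without Treg isotype library 4 it was -0.80 with an adjusted p of 0.0480 in edgeR. For anti-JAML against anti-PD-1 it was 0.45 ± 0.16 (adjusted p = 0.765). In CD8 cells Cd3e stood at 1022, 907, 903 and 905 CPM with isotype, at 842, 621, 753 and 590 CPM with anti-PD-1 and at 946, 536, 955 and 695 CPM with anti-JAML. The anti-PD-1 libraries again lay under all isotype libraries, and the fitted difference was -0.39 ± 0.19 (adjusted p = 0.903), where libraries of 6.85% of genes did not overlap. The difference between the populations in this antibody effect was 0.32 ± 0.26 (adjusted p = 1.00, interaction).

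Cd3g (ENSMUSG00000002033.14, chromosome 9, 44969572 to 44980431, minus strand) starts 1355 bases from Cd3d, which lies on the opposite strand between Cd3g and Cd3e. Cd3g in Treg cells stood at 3113, 2774, 3332 and 2029 CPM with isotype, at 2284, 1254, 1378 and 1526 CPM with anti-PD-1 and at 1250, 1740, 2204 and 2709 CPM with anti-JAML. Anti-PD-1 library 1 lay above isotype library 4, so these groups overlapped. The Cd3g log2 fold change for anti-PD-1 against isotype was -0.81 ± 0.25 (edgeR adjusted p = 0.180, DESeq2 0.0401), and for anti-JAML against isotype -0.51 ± 0.25 (adjusted p = 0.959). In CD8 cells Cd3g stood at 2422, 2379, 2642 and 1956 CPM with isotype, at 2030, 1509, 1820 and 1549 CPM with anti-PD-1 and at 2236, 865, 2106 and 1822 CPM with anti-JAML. The groups overlapped, and the CD8 difference for anti-PD-1 against isotype was -0.42 ± 0.24 (adjusted p = 0.960). Cd3d, the delta chain, is no member and had the same order in Treg cells, with 1721 ± 311 CPM under isotype, 1100 ± 196 under anti-PD-1 and 1331 ± 333 under anti-JAML. Between populations after isotype Cd3g differed by -0.33 ± 0.17, CD8 minus Treg (adjusted p = 0.246). That value passed without Treg isotype library 4 (-0.46, adjusted p = 0.0301) and turned sign with genes detected as a covariate (0.065, adjusted p = 0.800).

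The macrophage markers were highest in the same Treg anti-PD-1 group. Without its libraries 1 and 4, which held the most, the difference of Cd3e was -0.89 (adjusted p = 0.0783) and that of Cd3g -1.07 (adjusted p = 0.111). The 2 libraries kept, 2 and 3, also had the highest long-minus-short transcript difference of that group, a measure given further on. The part of the macrophage transcripts therefore cannot be told apart from it here. Cd3e and Cd3g varied together within groups: the Pearson r of their log2 CPM after subtracting group means was 0.87 over 24 libraries. This r is a description of libraries that share depth, sorting and amplification.

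Cd247 (ENSMUSG00000005763.15, chromosome 1, 165788681 to 165877277, plus strand) encodes the zeta chain, which carries most of the receptor's signalling motifs. Over all 24 libraries it lay between 175 and 386 CPM, with 332 ± 54.1 CPM in Treg and 243 ± 57.5 CPM in CD8 cells after isotype (SD, n = 4). Its exons overlap those of Pou2f1 on the opposite strand and of a predicted gene, and the strand setting of the counting is unknown here, so its level is uncertain. The difference of Cd247 between populations after isotype was -0.52 ± 0.20, CD8 minus Treg (edgeR adjusted p = 0.118, DESeq2 0.0439). After anti-PD-1 it was -0.18 ± 0.15 (adjusted p = 0.501) and after anti-JAML -0.33 ± 0.18 (adjusted p = 0.504). No antibody comparison of Cd247 reached an unadjusted p under 0.05 in edgeR. The same caution holds for Cd3e, Themis and Ptpn6, whose exons overlap a predicted or clone-named gene, and for Lck and Lat, whose exons hold an annotated microRNA.

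Lck (ENSMUSG00000000409.14, chromosome 4, 129548344 to 129573641, minus strand), the Src-family kinase that begins the cascade, varied less than Zap70 across libraries. Lck in CD8 cells stood at 952, 1135, 977 and 1038 CPM with isotype, at 1139, 1677, 1137 and 1180 CPM with anti-PD-1 and at 1188, 1493, 1193 and 1135 CPM with anti-JAML. All libraries of either antibody lay above all isotype libraries, though the lowest anti-JAML and the highest isotype library both rounded to 1135 CPM. Groups did not overlap for 6.85% of genes in the anti-PD-1 and 9.13% in the anti-JAML comparison. The Lck log2 fold change was 0.35 ± 0.17 for anti-PD-1 (adjusted p = 0.912) and 0.33 ± 0.17 for anti-JAML (adjusted p = 0.477) against the same isotype libraries. In Treg cells Lck lay between 961 and 1492 CPM and its groups overlapped, with differences of 0.09 ± 0.17 and -0.02 ± 0.17. Between populations after isotype it differed by -0.35 ± 0.15 (adjusted p = 0.159).

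Zap70 (ENSMUSG00000026117.10, chromosome 1, 36761798 to 36782818, plus strand), the kinase that docks on phosphorylated CD3 and zeta chains, reached its 2 highest values in Treg anti-PD-1 libraries. Zap70 in Treg cells stood at 166, 218, 222 and 259 CPM with isotype, at 166, 519, 591 and 378 CPM with anti-PD-1 and at 326, 242, 195 and 153 CPM with anti-JAML. Library 1 of the anti-PD-1 group was as low as the lowest isotype library, so the groups overlapped. The Zap70 log2 fold change in Treg cells was 0.93 ± 0.35 for anti-PD-1 against isotype (adjusted p = 0.241) and 0.08 ± 0.35 for anti-JAML against isotype (adjusted p = 1.00). Zap70 in CD8 cells stood at 181, 163, 132 and 174 CPM with isotype, at 220, 445, 160 and 267 CPM with anti-PD-1 and at 145, 273, 178 and 87.8 CPM with anti-JAML. CD8 anti-PD-1 library 2 was the highest, and the CD8 difference for anti-PD-1 was 0.78 ± 0.34 (adjusted p = 0.865). Between populations after isotype Zap70 stood at -0.48 ± 0.17, CD8 minus Treg, which did not pass in edgeR (adjusted p = 0.0912) and passed in DESeq2 (adjusted p = 0.0215). Without Treg isotype library 1 it passed in edgeR too (-0.58, adjusted p = 0.0295).

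Lat (ENSMUSG00000030742.7, chromosome 7, 126363824 to 126369570, minus strand), the membrane adaptor that Zap70 phosphorylates, was the steadiest member. Its 24 values ran from 465 to 711 CPM, a 1.53-fold range, and the groups overlapped in all 9 comparisons. The Treg values were 628 ± 77.3 CPM with isotype, 615 ± 11.7 with anti-PD-1 and 582 ± 51.5 with anti-JAML, and the CD8 values were 535 ± 56.5, 563 ± 63.7 and 528 ± 26.7 CPM (SD, n = 4). Against isotype the 95% intervals of the Lat difference were -0.21 to 0.40 for anti-PD-1 and -0.28 to 0.32 for anti-JAML in CD8 cells, and -0.31 to 0.25 and -0.39 to 0.17 in Treg cells. Larger changes of this transcript lie outside these unadjusted intervals.

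Themis (ENSMUSG00000049109.15, chromosome 10, 28668360 to 28883818, plus strand) was higher in CD8 than in Treg cells under all 3 antibodies. Themis in CD8 cells stood at 282, 294, 220 and 239 CPM with isotype, at 198, 372, 210 and 262 CPM with anti-PD-1 and at 325, 263, 287 and 371 CPM with anti-JAML. Themis in Treg cells stood at 64.1, 73.2, 65.5 and 68.9 CPM with isotype, at 48.8, 57.6, 95.3 and 76.7 CPM with anti-PD-1 and at 70.9, 24.2, 42.9 and 23.2 CPM with anti-JAML. The lowest of the 12 CD8 libraries lay above the highest of the 12 Treg libraries. The Themis log2 fold change, CD8 minus Treg, was 1.86 ± 0.15 with isotype (3.63-fold, adjusted p = 0.000127), 1.90 ± 0.28 with anti-PD-1 (3.73-fold, adjusted p = 0.00384) and 2.86 ± 0.38 with anti-JAML (7.25-fold, adjusted p = 0.00527). The Treg anti-JAML libraries held the 3 lowest values of all, and their library 1 lay among the isotype values. Against isotype the Treg difference was -0.75 ± 0.35 (adjusted p = 0.942) and the CD8 difference 0.31 ± 0.21 (adjusted p = 0.595). The test of the difference between these effects gave 1.02 ± 0.40 (adjusted p = 0.455). For anti-PD-1 the same interaction was -0.02 ± 0.40 (adjusted p = 1.00).

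Ptpn6 (ENSMUSG00000004266.15, chromosome 6, 124720707 to 124738714, minus strand) encodes SHP-1, a phosphatase recruited to inhibitory receptors. Ptpn6 in CD8 cells stood at 152, 131, 104 and 122 CPM with isotype, at 257, 442, 162 and 444 CPM with anti-PD-1 and at 113, 271, 263 and 200 CPM with anti-JAML. All 4 anti-PD-1 libraries lay above all isotype libraries, while anti-JAML library 1 lay among the isotype values. In the CD8 comparison of anti-PD-1 with isotype, groups did not overlap for 6.85% of genes in either direction. For anti-PD-1 against isotype the log2 fold change of Ptpn6 was 1.39 ± 0.33 (2.62-fold), with an unadjusted p of 0.00106 in edgeR across all 12648 genes, adjusted p = 0.831 in edgeR and 0.0363 in DESeq2. For anti-JAML against isotype it was 0.78 ± 0.33 (adjusted p = 0.403), and for anti-JAML against anti-PD-1 -0.61 ± 0.33 (adjusted p = 0.585). In Treg cells Ptpn6 stood at 78.0, 95.5, 136 and 126 CPM with isotype, at 171, 183, 172 and 139 CPM with anti-PD-1 and at 177, 143, 113 and 91.9 CPM with anti-JAML. The anti-PD-1 libraries again lay above all isotype libraries, where groups of 8.22% of genes did not overlap, with a difference of 0.61 ± 0.24 (adjusted p = 0.276). The interaction for anti-PD-1 was 0.75 ± 0.41 (adjusted p = 0.859). Between populations after anti-PD-1 Ptpn6 was at 0.96 ± 0.30, CD8 minus Treg (edgeR adjusted p = 0.0811, DESeq2 0.0318), and it passed in edgeR without CD8 anti-PD-1 library 3 (1.19, adjusted p = 0.0242).

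Ptpn22 (ENSMUSG00000027843.13, chromosome 3, 103859795 to 103912247, plus strand) encodes a phosphatase that acts on Lck and Zap70. Ptpn22 in CD8 cells stood at 481, 586, 465 and 459 CPM with isotype, at 550, 516, 483 and 537 CPM with anti-PD-1 and at 652, 570, 555 and 1354 CPM with anti-JAML. Every anti-JAML library lay above every anti-PD-1 library, as the groups did for 5.92% of genes in either direction, and library 4 was far above the rest. The Ptpn22 log2 fold change for anti-JAML was 0.70 ± 0.25 against isotype (adjusted p = 0.356) and 0.61 ± 0.25 against anti-PD-1 (adjusted p = 0.433). Without CD8 anti-JAML library 4 these were 0.29 (adjusted p = 0.453) and 0.20 (adjusted p = 0.785). With genes detected as a covariate the value against anti-PD-1 turned sign (-0.032). In Treg cells Ptpn22 stood at 285, 709, 708 and 484 CPM after isotype, and between 385 and 503 CPM after anti-PD-1 and 450 and 500 CPM after anti-JAML. The isotype libraries held both the lowest and the highest Treg values. The anti-JAML interaction was 0.85 ± 0.36 (adjusted p = 0.507).

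Cd5 (ENSMUSG00000024669.8, chromosome 19, 10717116 to 10739002, minus strand) was lower in CD8 than in Treg cells after isotype and after anti-JAML. Cd5 in CD8 cells stood at 157, 199, 137 and 142 CPM with isotype, at 136, 445, 181 and 193 CPM with anti-PD-1 and at 154, 163, 92.6 and 114 CPM with anti-JAML. Cd5 in Treg cells stood at 415, 439, 419 and 487 CPM with isotype, at 419, 622, 534 and 436 CPM with anti-PD-1 and at 649, 554, 445 and 440 CPM with anti-JAML. Only CD8 anti-PD-1 library 2, at 445 CPM, lay within the Treg range. The Cd5 log2 fold change, CD8 minus Treg, was -1.54 ± 0.15 after isotype (2.90-fold, adjusted p = 0.000309) and -2.09 ± 0.26 after anti-JAML (4.25-fold, adjusted p = 0.00399). After anti-PD-1 the Cd5 value was -1.08 ± 0.34 (edgeR adjusted p = 0.0856, DESeq2 0.0198), and without CD8 anti-PD-1 library 2 it passed in edgeR (-1.56, adjusted p = 0.00648). The same library moved the CD8 comparison of the antibodies: Cd5 was at -0.86 ± 0.33 for anti-JAML against anti-PD-1 (adjusted p = 0.374) and at -0.35 without it. Against isotype the CD8 differences were 0.63 ± 0.33 for anti-PD-1 (adjusted p = 0.936) and -0.24 ± 0.33 for anti-JAML (adjusted p = 0.817).

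The libraries differed in the balance between long and short transcripts, and several members moved with this. The share of all genes that moved with it was not computed, so this cannot be called particular to the members. Length here is that of a gene's merged exons. For each library the median log2 deviation of the 1957 shortest (at most 2731 bases) was subtracted from that of the 1957 longest (at least 6822 bases), leaving out the genes of this pathway. By this length Lck holds 2929 bases, Zap70 2992, Cd3g 3269, Cd3e 4080 and Cd5 4928. Whether the difference stems from how transcripts were read or from expression was not tested. This difference lay between -0.46 and -0.37 in CD8 isotype libraries, between -0.46 and 0.24 in CD8 anti-PD-1 and between -0.22 and 0.62 in CD8 anti-JAML libraries. In Treg cells it lay between -0.33 and 0.36 after isotype, between -0.27 and 0.71 after anti-PD-1 and between -0.002 and 0.64 after anti-JAML. It was related to each member within each population (12 libraries), 20 relations in all, with two-sided permutation p-values adjusted over the 20. The 3 antibody groups were pooled in each relation, so differences between antibodies enter r and p. With group means subtracted, r over all 24 libraries was -0.89 for Cd3g, -0.82 for Cd3e and 0.80 for Zap70. It was 0.66 for Cd5, 0.60 for Ptpn6 and 0.56 for Lck, and these values were not tested. Cd3g was lower where the difference was higher. In Treg cells it gave r = -0.89 (adjusted permutation p = 0.00147) and Spearman's rho = -0.90 (0.00420), and in CD8 cells r = -0.88 (0.00280) and rho = -0.78 (0.0195). Without the 2 libraries farthest from the median difference, r was -0.84 and -0.62. Cd3e gave r = -0.70 (0.0357) and rho = -0.71 (0.0392) in Treg and r = -0.83 (0.00564) and rho = -0.59 (0.0974) in CD8 cells, and r = -0.64 and -0.63 without 2 libraries.

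Zap70 and Cd5 went the other way in Treg cells. Zap70 gave r = 0.86 (adjusted permutation p = 0.00147) and rho = 0.83 (0.00940), and r = 0.81 without 2 libraries. Cd5 gave r = 0.87 (0.00147) and rho = 0.84 (0.00940), and r = 0.82 without 2 libraries. In CD8 cells r was 0.40 for Zap70 (0.292) and 0.27 for Cd5 (0.507), and without 2 libraries both turned negative (-0.28 and -0.26). Lck gave r = 0.79 (0.0119) and rho = 0.76 (0.0246) in CD8 cells, and r = 0.54 without 2 libraries. No relation of Cd247, Lat, Themis or Ptpn22 passed, and Ptpn6 passed by rho in both populations (0.69 and 0.68, adjusted permutation p = 0.0459 for each) but not by r. With the difference as a covariate, the Treg anti-PD-1 against isotype value was -0.60 for Cd3e (adjusted p = 0.0983 in edgeR), -0.47 for Cd3g (0.187) and 0.25 for Zap70 (0.665). The CD8 anti-PD-1 value of Ptpn6 was 0.97 (0.901), and the CD8 values of Lck were 0.18 for anti-PD-1 and 0.02 for anti-JAML. In CD8 cells the transcript difference was at most -0.37 with isotype and at least -0.22 with anti-JAML. The covariate and that antibody therefore cannot be fully told apart. The same holds for CD8 against Treg libraries after isotype, where the CD8 libraries lay lower. Themis and Cd5 still passed between populations after isotype (1.94, adjusted p = 0.00370, and -1.38, adjusted p = 0.00810) and after anti-JAML (3.01, adjusted p = 0.00698, and -1.97, adjusted p = 0.00296).

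**Figure D5:**
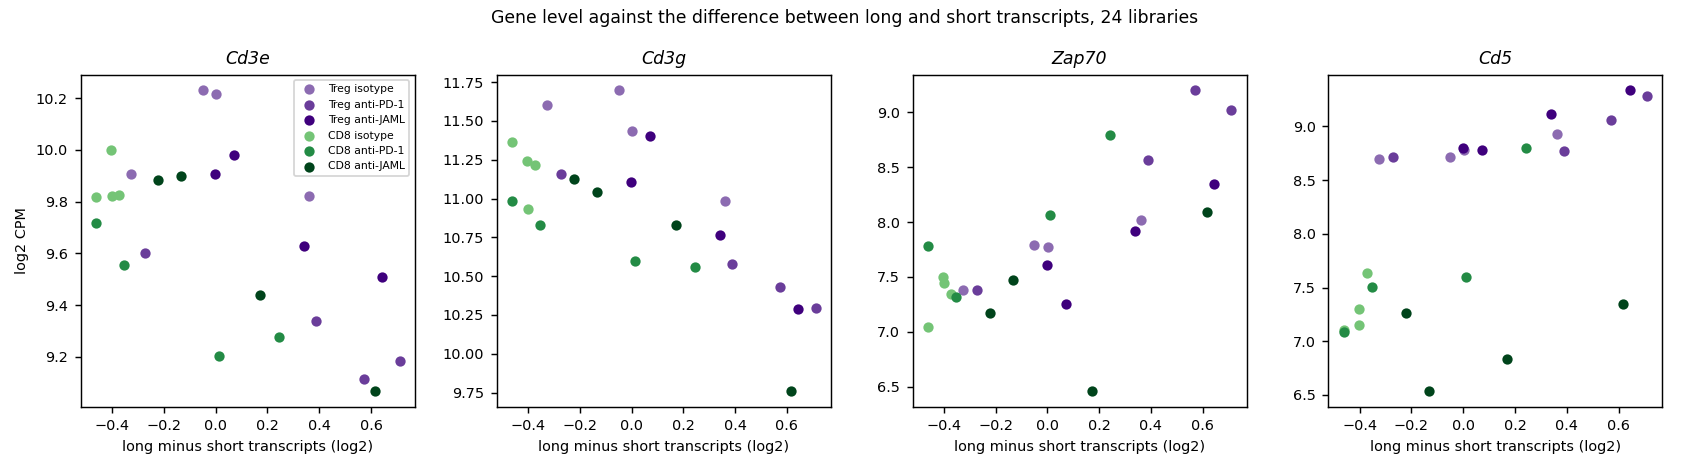
Log2 CPM of Cd3e, Cd3g, Zap70 and Cd5 (vertical axes) against the median difference between long and short transcripts in each library (horizontal axis, log2), coloured by group. Cd3e and Cd3g slope down in both populations, while Zap70 and Cd5 slope up among the Treg libraries, and all but 1 CD8 library lie under every Treg library for Cd5.

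The rest of the pathway was read from 56 other genes in 5 lists: receptor complex and coreceptors, kinases, adaptors, downstream enzymes and negative regulators. Between populations after isotype 3 of 54 tested were higher and 16 lower in CD8 cells, against 959 higher and 832 lower of 11680 genes. The cells were sorted on CD8 and CD4, so the calls of Cd8a, Cd8b1 and Cd4 follow from the sort. They are counted here and under both other antibodies. The median log2 fold change of the 54 was -0.49, and that of all genes -0.06. Besides Cd8a and Cd8b1, the higher one was Sh2d2a, an adaptor that binds Lck (1.17 ± 0.23, adjusted p = 0.00983). The lower ones with the smallest p were Cd4, Sla, an adaptor that lowers receptor levels (-2.07 ± 0.19, adjusted p = 0.000266), Cd2, an adhesion receptor (-1.31 ± 0.14), Inpp5d, the lipid phosphatase SHIP-1 (-1.62 ± 0.20), Trat1, a receptor-associated adaptor (-2.55 ± 0.43), and Fyb, an adaptor of integrin signalling (-1.12 ± 0.19). By list, 5 of 10 receptor and coreceptor genes, 5 of 13 adaptors, 2 of 8 downstream enzymes, 4 of 18 negative regulators and 0 of 5 kinases were lower. The 4 in the list named negative regulators were Sla, Dgka, Inpp5d and Ptprc, the phosphatase CD45, whose role in receptor signalling is not only negative.

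After anti-PD-1 4 of the 54 were higher and 8 lower in CD8 cells, with a median of -0.51, against 442 higher and 513 lower of 12193 genes and a median of -0.05. Cblb, a ubiquitin ligase (0.92 ± 0.21), and Txk, a Tec-family kinase (0.91 ± 0.22), were higher beside Cd8a and Cd8b1. Dgka, a diacylglycerol kinase (-1.05 ± 0.22), and Rasgrp1, a Ras exchange factor (-1.15 ± 0.24), were lower, as were Cd4, Sla, Cd2 and Inpp5d. After anti-JAML 3 were higher and 3 lower, with a median of -0.24, against 87 higher and 161 lower of 11950 genes and a median of -0.03. The higher ones were Cd8a, Cd8b1 and Cblb (1.12 ± 0.22), and the lower ones Cd4, Sla (-1.85 ± 0.28) and Cd2 (-1.23 ± 0.21). Of these, Cd8a, Cd8b1 and Cd4 again follow from the sort. These counts moved with the processing, from 8 to 26 after isotype, 4 to 22 after anti-PD-1 and 4 to 14 after anti-JAML over the alternatives.

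Within populations 0 of 53 pathway genes passed in any antibody comparison in edgeR, and over the alternatives at most 6 did. At an unadjusted p under 0.05, 7 were higher and 12 lower in Treg cells for anti-PD-1 against isotype, 5 of the lower ones in the receptor and coreceptor list of 9. Of all 12981 genes 1082 were higher and 753 lower at that p. The smallest p there belonged to Trbc1 and Trbc2, the beta-chain constant regions of the receptor, at -0.98 ± 0.22 (adjusted p = 0.0940) and -0.82 ± 0.22 (adjusted p = 0.141). Trbc1 and Trbc2 are near-identical copies, so reads may be split between them and each value is uncertain. In CD8 cells 13 pathway genes were higher and 1 lower for anti-JAML against isotype at that unadjusted p, with a median of 0.38 against 0.09 for all genes. Of all 12648 genes 867 were higher and 616 lower at that p. The long-minus-short transcript difference did not overlap between these groups, at -0.46 to -0.37 with isotype and -0.22 to 0.62 with anti-JAML. Its part in the values of these pathway genes was not tested. The smallest p belonged to Rasgrp1 (1.23 ± 0.28, adjusted p = 0.254) and Fyb (0.81 ± 0.19, adjusted p = 0.275). In CD8 cells with anti-PD-1 against isotype it belonged to Ubash3b, a phosphatase that restrains receptor signals (0.88 ± 0.22, adjusted p = 0.831), and Trbc2 (-0.76 ± 0.21, adjusted p = 0.856). Between anti-JAML and anti-PD-1 in CD8 cells it belonged to Tec, a tyrosine kinase (1.53 ± 0.33, adjusted p = 0.119), and Rasgrp1 (1.13 ± 0.28, adjusted p = 0.167). In Treg cells it belonged to Themis2, a relative of Themis, and Trbc1 for anti-JAML against isotype (-2.51 ± 0.80 and -0.59 ± 0.22, adjusted p = 0.853 for each), and to Themis2 and Trat1 for anti-JAML against anti-PD-1 (-3.14 ± 0.82 and 1.12 ± 0.37, adjusted p = 0.583 and 0.734). The interactions had Sla2 and Trbc1 first for anti-JAML (-0.70 ± 0.20 and 1.31 ± 0.42, adjusted p = 0.368 for each) and Trbc1 and Tec for anti-PD-1 (1.65 ± 0.42 and -3.77 ± 1.29, adjusted p = 0.541 and 0.570).

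For each member the gene most like it was found among 7745 genes by Pearson's r of log2 CPM over the 24 libraries. Pooling both populations lets their difference enter the likeness. Themis was most like Cd8a (r = 0.92) and Cd5 most like Hif1a (0.92). Cd3e was most like Pfdn5 (0.92), Cd3g most like Pglyrp1 (0.96), followed by Cd3d (0.93), and Zap70 most like Il2rb (0.93). The closest genes of the other members were Arpc1b for Lck (0.81), Abcf1 for Ptpn6 (0.82), Lrrc70 for Cd247 (0.77), Tbc1d2b for Ptpn22 (0.76) and Bnip3 for Lat (0.69). Among the 45 pairs of members within groups, r ran from -0.74 (Cd3g with Zap70) to 0.87 (Cd3e with Cd3g), with a median of 0.01.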

How the data were processed

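The 24 libraries (6 groups of 4) were taken from the labels, which also give replicate numbers. The deposited gene table holds raw counts, and a second deposited table holds TPM, which scales for transcript length. Per the submitters' processing notes, the tools named are STAR 2.7.3a, fastp 0.20.1, deepTools 3.3.1 and SAMtools, and the build is mm10, with no roles stated. Which program made the counts, whether it used strand, and which gene annotation it read is not given in the sources used here.

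The main test was edgeR 4.0.16 in R 4.3.3, a two-sided quasi-likelihood F test with robust dispersion and TMM factors. Genes were kept by filterByExpr (min.count 10, min.total.count 15), and p-values were adjusted by Benjamini-Hochberg across every gene kept, at 0.05. Antibody comparisons used the 12 libraries of a population, comparisons of CD8 with Treg cells used 8, and interactions used 24. Results were recomputed with DESeq2 1.42.0, with RLE factors, unfiltered, with the replicate number as a block, with genes detected as a covariate, on other sets of libraries and without each library in turn. The long-minus-short transcript covariate and the fit without Treg anti-PD-1 libraries 1 and 4 were chosen after seeing the data. The fits were also run on simulated data with planted changes and a fixed spread, which does not measure power in these libraries. CPM used TMM factors over all 24 libraries. Smart-seq2 counts carry no molecular identifiers, so depth covers counting error only. TPM served to compare levels between genes and to describe group means, and entered no test. Positions came from GENCODE M21, which holds 54209 of the 54957 IDs (98.64%).

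The members and lists were chosen with earlier results of these data known. All 10 members are named. Pathway genes are named by smallest p, at most 6 each way where any passed and otherwise 2. The genes most like a member are those of highest r, omitting predicted, clone-named and pseudogene symbols.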

Additional observations from a re-analysis of the deposited data

Results flagged for a closer look

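In 4 of 60 sets of 4 libraries, 1 per member and group, a single library stood apart from the other 3 by more than Dixon's 95% critical value for 4 samples (a gap over range of 0.829). Chance alone gives about 1 in 20, or 3 of 60. Cd3e stood at 1022 CPM in CD8 isotype library 1, against 903 to 907 CPM in the other libraries of that group. Lck stood at 1677 CPM in CD8 anti-PD-1 library 2, against 1137 to 1180 CPM, and at 1493 CPM in CD8 anti-JAML library 2, against 1135 to 1193 CPM. Ptpn22 stood at 1354 CPM in CD8 anti-JAML library 4, against 555 to 652 CPM. The long-minus-short transcript difference was the highest of its group in both Lck libraries, at 0.24 and 0.62. Across the 12 CD8 libraries Lck rose with that difference (r = 0.79, adjusted permutation p = 0.0119). Both flagged Lck libraries entered this r, and they were the 2 farthest from the median difference. Without them r was 0.54, so the relation is no separate account of them. CD8 anti-JAML library 2 also held the most macrophage markers of the CD8 libraries, 461 CPM in sum. Erythroid markers summed to 491 CPM in that library, 404 CPM in library 4 of the group and 272 CPM in CD8 isotype library 3. The part of these markers in the Lck and Ptpn22 levels was not tested.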

How the results depend on the processing

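The number of members past the threshold moved by over 1.5 times in 4 comparisons. DESeq2 called 1 for anti-PD-1 against isotype in CD8 cells (Ptpn6), 2 in Treg cells (Cd3e, Cd3g), and between populations 4 after isotype (adding Cd247 and Zap70) and 3 after anti-PD-1 (adding Ptpn6 and Cd5). Between populations after anti-PD-1 the count was 2 with the replicate block (adding Cd5, -1.22, adjusted p = 0.0231), 2 with all 24 libraries in the edgeR fit (Cd5) and 2 with the long-minus-short transcript covariate (Ptpn6, 1.19, adjusted p = 0.0436), and 1 to 2 leaving out each library. It was 0 to 1 leaving out each library for anti-PD-1 against isotype in Treg cells. The cause was not tested. The other counts stayed within 1.5 times. Libraries with the same number were little alike: the median correlation of their deviations between groups of a population was -0.002 over 24 pairs, with 1 above 0.1. Between CD8 and Treg libraries of 1 antibody it was 0.042 over 12 pairs, with 1 above 0.1, and -0.015 over 36 pairs of unlike number. These correlations cannot tell whether CD8 and Treg libraries of 1 number came from the same tumour. Beyond the count above, the replicate block moved no other count. A subset of 34 member values held those with an unadjusted edgeR p under 0.05, with groups that did not overlap, or between populations after isotype. In this subset 3 turned sign. With genes detected as a covariate these were the CD8 value of Ptpn22 between anti-JAML and anti-PD-1 (-0.032) and Cd3g between populations after isotype (0.065). With the transcript covariate it was Ptpn22 between populations after isotype (0.16). Over all 110 member values, 36 turned sign at least once, the smallest unadjusted edgeR p among them being 0.0321. Some values printed above lie outside the subset and turned sign too. Leaving out each library, the Treg differences for anti-JAML against isotype ran from -0.125 to 0.079 for Lck and from -0.149 to 0.245 for Zap70. By CPM per kilobase of merged exons, 56 of 60 places in the level order were kept. With 4 libraries a group, the edgeR intervals of the antibody differences of Ptpn6, Zap70, Ptpn22 and Cd3g span over 1 log2 unit. So do those of Cd5 in CD8 cells and of Themis in Treg cells.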
